A study of Mus musculus with 9 samples.

Results

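The insulin-like growth factor (IGF) axis was followed in mouse embryonic fibroblasts (MEFs) that express one or the other isoform of the transcription factor C/EBPβ. It was taken as 10 genes, named for their place in the pathway by a rule that used no measured value, although earlier results of these data were known when it was set, out of the 23337 gene symbols in the count table. These were the ligands Igf1 and Igf2, the receptors Igf1r and Igf2r, and the binding proteins Igfbp2, Igfbp3, Igfbp4, Igfbp5, Igfbp6 and Igfbp7. All 10 had at least 1 read in the libraries of each comparison and were tested in each.

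IGF1 and IGF2 are secreted peptides that activate the tyrosine kinase IGF1R and, through receptor substrates, PI3K and AKT. IGF2R, which is also the cation-independent mannose 6-phosphate receptor, takes up IGF2 for degradation in lysosomes and carries lysosomal enzymes. IGF binding proteins hold the ligands outside the cell, which keeps them from the receptor or delivers them to it. Proteases such as PAPP-A cut binding proteins and release the ligand. Embryonic fibroblasts are known to depend on this axis for growth in culture.

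RNA was sequenced from immortalised Cebpb-ko MEFs of a C57BL/6 x 129 background, which make no functional C/EBPβ of their own. The cells had been transfected with an empty vector (EV) or with a vector for rat LAP or rat LIP, the long and the short isoform of C/EBPβ, and stable expression was kept up with Zeocin in all groups. LAP activates transcription, while LIP lacks the activation domains and opposes LAP. There were 3 libraries each of EV, LAP and LIP, named here by group and label number, and the comparisons ask what either isoform changes against the empty vector and how the isoforms differ. All groups therefore share the deletion, the immortalisation and the selection, the isoforms are expressed from a plasmid, and neither the labels nor the methods say whether the 3 libraries of a group came from separate transfections. P-values thus measure the spread between these libraries, which may be technical.

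The libraries held 24839139 to 33522082 counted reads, and 3 reads, the floor used here, stood for 0.0895 to 0.121 CPM (reads scaled to a common library size). Intervals and floors of this kind cover counting error only. Reads counted on Cebpb numbered 684 to 1077 in every library, EV included, so that the gene does not check the labels. All 12 fibroblast markers had reads in EV and in LAP, but Lum had 0 reads in LIP1, LIP2 and LIP3. Pdgfra and Pdgfrb were low throughout, with means of 2.41 and 1.06 CPM in EV, 2.10 and 1.04 CPM in LAP and 0.937 and 0.326 CPM in LIP. The summed level of the list was 36365 to 40877 CPM in EV, 30363 to 44533 CPM in LAP and 17578 to 31125 CPM in LIP. The LIP libraries thus differed in this list too, and 11 of its 12 genes had a log2 fold change below 0 in LIP against EV (median −0.95) and all 12 in LIP against LAP (median −0.89), with 7 at an unadjusted p under 0.05 in each and 0 at an adjusted p under 0.05 by the edgeR quasi-likelihood test. These 7 were lower in LIP, as were 6.75% and 5.98% of all genes at that unadjusted p. The part of the fibroblast markers in the values of the IGF axis was not tested. The 6 epithelial markers summed to 577 to 706 CPM in EV, 485 to 986 CPM in LAP and 587 to 1004 CPM in LIP. Among them, Krt8 had means of 450, 519 and 627 CPM in EV, LAP and LIP, and Krt14 of 198, 153 and 135 CPM. Pecam1, Ptprc, Myod1, Myf5, Plin1 and Ttr, markers of endothelial, blood, muscle, fat and liver cells, had 0 reads in all 9 libraries, while other markers of these lists, such as Kdr, Cd68 and Fabp4, had reads. The 4 leukocyte markers, 3 of which are in the table, summed to at most 8.88 CPM. The endothelial, muscle, adipocyte and hepatocyte lists summed to at most 3.64, 1.93, 2.58 and 0.894 CPM.

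Levels of different genes were compared per kilobase of exon, that is as TMM-scaled CPM divided by the length of the gene's merged exons. In EV the mRNA of Igfbp4 was by far the most abundant of the axis, with 281 ± 12.2 CPM per kilobase (SD, n = 3). Igfbp3 followed with 35.0 ± 15.5, Igfbp6 with 29.9 ± 1.05, Igfbp7 with 22.6 ± 4.41, Igf2r with 15.6 ± 2.22 and Igf1r with 11.1 ± 0.897 CPM per kilobase (SD, n = 3 each). Igfbp5, at 2.92 ± 2.54, and Igfbp2, at 1.81 ± 1.37 CPM per kilobase, were the least abundant binding proteins (SD, n = 3 each). In this order the EV libraries of Igfbp3 and Igfbp6 overlapped, as did those of Igfbp5 and Igfbp2, and the other neighbours were apart. In LAP and in LIP, the genes between Igfbp4 and Igfbp5 overlapped more. Igf1r stood at rank 6 in every EV and LAP library and at ranks 5, 2 and 4 in LIP1, LIP2 and LIP3. Igfbp4 ranked 1 in all 9 libraries and held 66.4% to 86.4% of the summed level per kilobase of the 6 binding proteins. The ligands were lowest, with mean levels of 0.0625 CPM per kilobase for Igf2 and 0.0140 CPM per kilobase for Igf1 in EV, from 0 to 26 and from 1 to 6 reads per library. The fibroblasts thus had mRNA for receptors and binding proteins, and very little for ligands, at this depth.

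**Figure D1:**
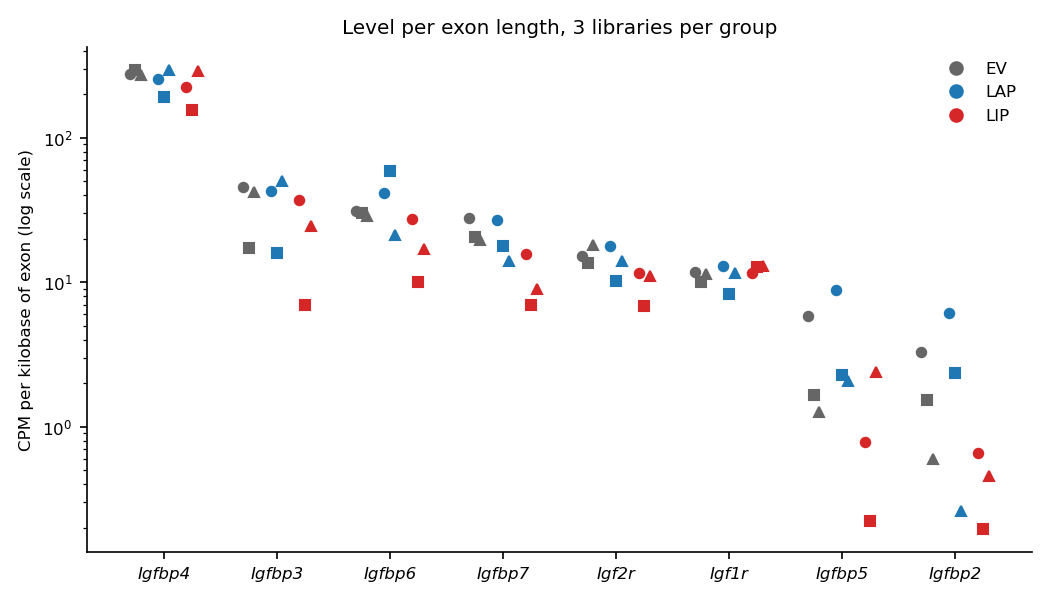
Level of each receptor and binding protein in CPM per kilobase of exon, on a log axis, with 1 point per library, coloured by group and shaped by library number. Igfbp4 lies at the top in all groups, with group means of 281 in EV, 247 in LAP and 222 CPM per kilobase in LIP, and Igfbp5 and Igfbp2 lie lowest and spread most.

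The start regions of Igfbp2, Igfbp5, Igfbp6 and Igfbp7 are shown because their mRNAs had the lowest p-values in the comparison of the isoforms, which are DNA-binding proteins. Sequences are the 250 bases before the RefSeq start on GRCm38.p6, read 5′ to 3′ along the gene's strand, with every match to the GC box GGGCGG or to the TATA box TATAAA, on either strand, in capitals.
Igfbp2, chr1:72824230-72824479, plus strand: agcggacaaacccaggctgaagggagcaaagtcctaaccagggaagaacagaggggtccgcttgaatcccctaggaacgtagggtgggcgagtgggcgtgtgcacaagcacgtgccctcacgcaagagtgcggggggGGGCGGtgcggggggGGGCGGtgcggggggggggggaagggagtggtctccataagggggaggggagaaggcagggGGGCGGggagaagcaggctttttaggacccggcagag
Igfbp5, chr1:72874866-72875115, minus strand: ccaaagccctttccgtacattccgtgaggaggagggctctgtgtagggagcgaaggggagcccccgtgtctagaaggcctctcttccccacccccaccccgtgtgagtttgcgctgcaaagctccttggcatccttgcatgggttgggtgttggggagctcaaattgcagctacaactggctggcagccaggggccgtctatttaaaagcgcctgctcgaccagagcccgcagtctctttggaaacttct
Igfbp6, chr15:102143936-102144185, plus strand: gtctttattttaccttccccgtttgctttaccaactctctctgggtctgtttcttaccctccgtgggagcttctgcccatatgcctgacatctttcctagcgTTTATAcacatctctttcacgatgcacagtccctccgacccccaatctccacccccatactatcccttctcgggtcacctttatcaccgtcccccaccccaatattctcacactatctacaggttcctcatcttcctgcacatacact
Igfbp7, chr5:77408046-77408295, minus strand: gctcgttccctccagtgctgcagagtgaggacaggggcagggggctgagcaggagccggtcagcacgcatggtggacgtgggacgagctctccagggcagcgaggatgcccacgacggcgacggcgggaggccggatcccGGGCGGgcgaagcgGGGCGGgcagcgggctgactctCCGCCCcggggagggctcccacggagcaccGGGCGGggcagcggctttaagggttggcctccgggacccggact
The RefSeq table held 14 such windows for the 10 genes and 32841 in all. Igfbp2 had a further window, chr1:72825137-72825386, which is not printed and holds no match to GGGCGG or TATAAA. The core of the C/EBP motif, searched as TTGCNNAA on both strands, was in 0 of the 14 windows and in 9.57% of all windows. GGGCGG was in 6 of the 14 and in 32.7% of all, and TATAAA was in 2 of the 14, those of Igfbp4 and Igfbp6, and in 12.4% of all. The median GC content of the 14 windows was 66.6%, against 52.4% over all, and the median ratio of observed to expected CpG was 0.703 against 0.374. A window without a match says only that these letters are not in these 250 bases, and a match is not evidence of binding.

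The ligands gave few reads. Igf1, the circulating growth factor that liver makes under growth hormone, had 6, 3 and 4 reads in EV1, EV2 and EV3, 4, 1 and 2 reads in LAP1, LAP2 and LAP3, and 1, 2 and 2 reads in LIP1, LIP2 and LIP3. Every LIP library lay below every EV library. Summed over libraries, the ratio of LIP to EV was 0.430, with a 95% counting interval from 0.120 to 1.28 that includes no difference. Igf2, the fetal growth factor from an imprinted gene on chromosome 7 (142650766 to 142666816, minus strand, GRCm38), had 22, 5 and 7 reads in EV1, EV2 and EV3, 26, 6 and 5 in LAP1, LAP2 and LAP3, and 12, 3 and 0 in LIP1, LIP2 and LIP3. In every group the library numbered 1 held most of the reads, and the groups overlapped. The summed ratio was 0.493 in LIP against EV (95% counting interval 0.249 to 0.929) and 0.437 in LIP against LAP (0.223 to 0.815), but with the spread between libraries in the model the adjusted p-values were 0.706 and 0.763. At this depth no difference in the ligands was detectable. The annotation of Igf2 shares 98 exon bases with the antisense gene Igf2os and 3596 with Gm49394 on its own strand, neither of which is in the count table, and as the counting's strand setting is not stated in the sources used here, reads there cannot be told apart.

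Among the receptors, Igf1r, the signalling receptor (chromosome 7, 67952827 to 68233668, plus strand), was at 197, 168 and 192 CPM in EV1, EV2 and EV3, at 216, 140 and 193 CPM in LAP1, LAP2 and LAP3, and at 196, 213 and 217 CPM in LIP1, LIP2 and LIP3. The groups overlapped. Its log2 fold change was 0.17 ± 0.15 (SE) in LIP against EV, with a 95% interval from −0.16 to 0.50 and an adjusted p of 0.706, and 0.20 ± 0.23 in LIP against LAP, with an interval from −0.29 to 0.69 and an adjusted p of 0.805. Igf1r was the only one of the 10 genes with a value above 0 in both comparisons.

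Igf2r (chromosome 17, 12682406 to 12769664, minus strand) was at 142, 127 and 167 CPM in EV1, EV2 and EV3, at 167, 94.97 and 130 CPM in LAP1, LAP2 and LAP3, and at 108, 63.8 and 104 CPM in LIP1, LIP2 and LIP3. All LIP libraries lay below all EV libraries, while LAP overlapped both groups. The log2 fold change was −0.66 ± 0.20 (SE) in LIP against EV, with an adjusted p of 0.225, and −0.50 ± 0.26 in LIP against LAP, with an adjusted p of 0.593. By number, the LIP library was at 0.649, 0.700 and 0.790 times the LAP library, that is lower in 3 of 3. The noncoding RNA Airn overlaps the gene on the opposite strand, shares 0 exon bases with it and had 11 to 46 reads per library.

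The values of the binding proteins Igfbp4 and Igfbp3 were spread widely over the LIP libraries. Igfbp4 (chromosome 11, 99041244 to 99054392, plus strand), which inhibits IGF action until PAPP-A cuts it, was at 1222, 1300 and 1197 CPM in EV1, EV2 and EV3, at 1124, 849 and 1294 CPM in LAP1, LAP2 and LAP3, and at 989, 686 and 1272 CPM in LIP1, LIP2 and LIP3. Library LIP3 was within the range of EV and LIP2 was the lowest of all. Its log2 fold change was −0.34 ± 0.23 (SE) in LIP against EV, with an adjusted p of 0.654, and −0.14 ± 0.30 in LIP against LAP, with a 95% interval from −0.77 to 0.50 and an adjusted p of 0.912, and the latter turned to 0.06 without LIP2 and to 0.05 without LAP3. Igfbp3 (chromosome 11, 7206086 to 7213923, minus strand), the main carrier of IGFs in serum, was at 144, 54.0 and 131 CPM in EV1, EV2 and EV3, at 135, 50.2 and 158 CPM in LAP1, LAP2 and LAP3, and at 116, 21.95 and 76.7 CPM in LIP1, LIP2 and LIP3. The library numbered 2 was the lowest in each group. Its log2 fold change was −0.61 ± 0.47 in LIP against EV, with an adjusted p of 0.689, and −0.67 ± 0.43 in LIP against LAP, with an adjusted p of 0.730. Igfbp1, its neighbour 3539 bases away, had 0 reads in all 9 libraries.

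Igfbp2 and Igfbp5 lie side by side on chromosome 1 in opposite orientation, 5457 bases apart, and both varied strongly between libraries. Igfbp2 (72824503 to 72852474, plus strand) is the binding protein known for its high level in fetal tissue. It was at 6.10, 2.84 and 1.11 CPM in EV1, EV2 and EV3, at 11.3, 4.35 and 0.481 CPM in LAP1, LAP2 and LAP3, and at 1.22, 0.360 and 0.840 CPM in LIP1, LIP2 and LIP3. LAP3 was below LIP1 and LIP3, and EV3 below LIP1, so the groups overlapped. These levels rest on 11 to 365 reads per library. Igfbp5 (72857932 to 72874884, minus strand), which binds extracellular matrix, was at 35.1, 9.93 and 7.65 CPM in EV1, EV2 and EV3, at 53.0, 13.7 and 12.4 CPM in LAP1, LAP2 and LAP3, and at 4.69, 1.34 and 14.4 CPM in LIP1, LIP2 and LIP3. LIP1 and LIP2 were below all libraries of EV and LAP, and LIP3 was within both groups. Across the 9 libraries of the 3 groups, Pearson's r between the log2 levels of both genes was 0.786, which is given as a description, since the libraries share groups and numbers.

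Igfbp6 and Igfbp7 separated LIP from EV. Igfbp6 (chromosome 15, 102144362 to 102149511, plus strand), which prefers IGF2 over IGF1, was at 34.4, 33.3 and 32.1 CPM in EV1, EV2 and EV3, at 46.4, 65.2 and 23.5 CPM in LAP1, LAP2 and LAP3, and at 30.5, 11.1 and 18.8 CPM in LIP1, LIP2 and LIP3. All LIP libraries were below all EV libraries, and LIP1 was above LAP3. Igfbp7 (chromosome 5, 77349240 to 77408041, minus strand), a secreted relative that binds IGFs weakly and insulin as well, was at 33.5, 24.9 and 23.8 CPM in EV1, EV2 and EV3, at 32.8, 21.5 and 17.1 CPM in LAP1, LAP2 and LAP3, and at 19.1, 8.49 and 10.9 CPM in LIP1, LIP2 and LIP3. Again all LIP libraries were below all EV libraries, and LIP1 was above LAP3. Igfbp7 shares 85 exon bases with Polr2b on the opposite strand, which had 3169 to 5908 reads per library, and reads in those bases cannot be told apart.

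**Figure D2:**
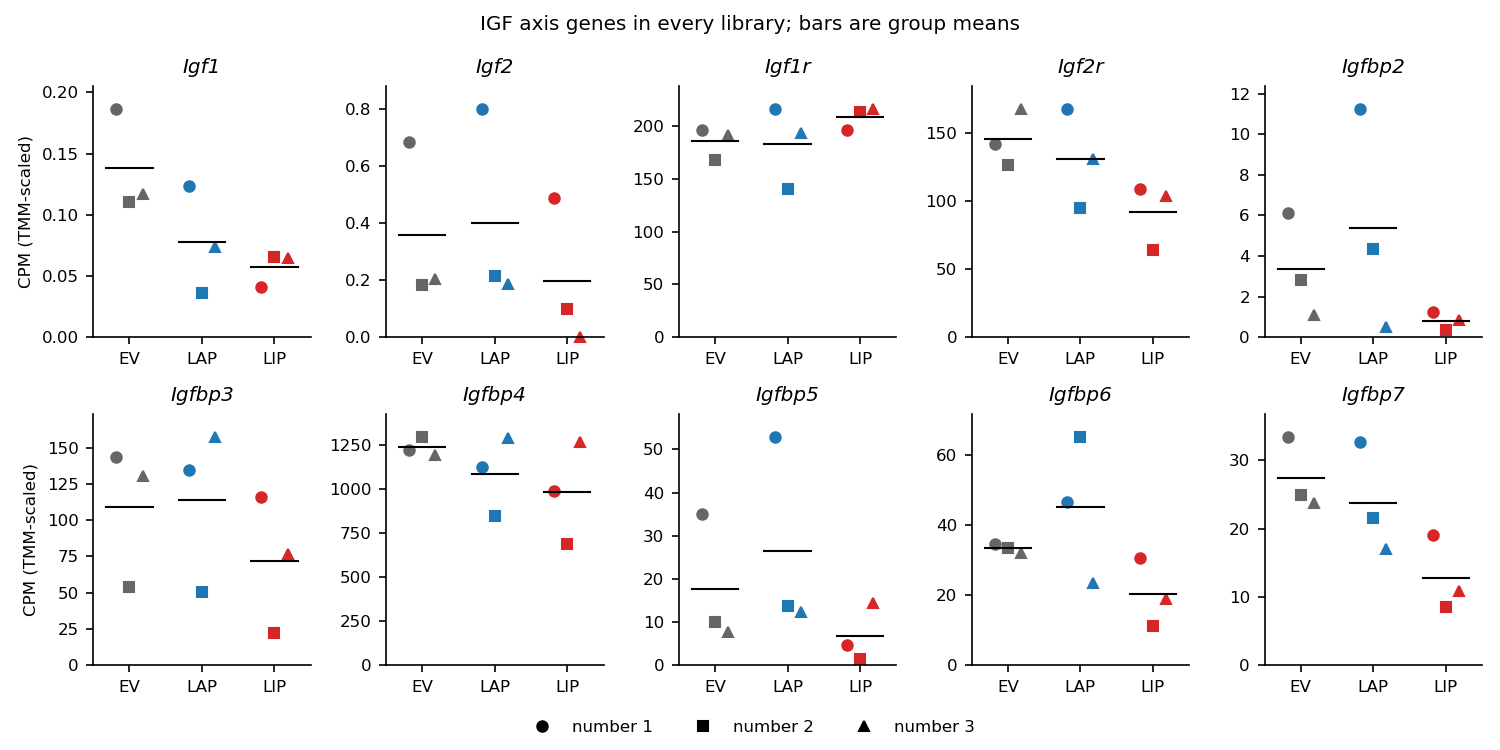
TMM-scaled CPM of the 10 genes, each on its own axis from 0, with 1 point per library, shaped by library number, and a bar at the group mean. LIP points lie below all EV points for Igf1, Igf2r, Igfbp6 and Igfbp7, and the library numbered 1 is highest in EV and LAP for Igf1, Igf2, Igf1r, Igfbp2, Igfbp5 and Igfbp7. Igf1 rests on 1 to 6 reads per library.

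In LIP against EV, 9 of the 10 genes had a log2 fold change below 0, with a median of −0.84, where the median over all 18203 genes tested was 0.04 and 46.0% of them were below 0. These 9 include the ligands, which had only 1 to 6 reads per library for Igf1 and 0 to 26 for Igf2. Igfbp2 had the lowest value, −2.06 ± 0.57 (SE, 95% interval −3.29 to −0.83), with an adjusted p of 0.161. For Igfbp5 it was −1.36 ± 0.69 with an adjusted p of 0.508, and for Igfbp7 −1.10 ± 0.27 (95% interval −1.69 to −0.50) with an adjusted p of 0.118. For Igfbp6 the value was −0.73 ± 0.28, with an adjusted p of 0.357. Thus 0 of the 10 genes passed the adjusted threshold of 0.05 by the edgeR quasi-likelihood test, which 0.330% of all genes passed as lower and 0.0659% as higher. At an unadjusted p under 0.05, 4 of the 10 were lower, Igf2r, Igfbp2, Igfbp6 and Igfbp7, and 0 higher, against 6.75% and 4.23% of all genes. All LIP libraries were below all EV libraries for 4 of the 10, Igf1, Igf2r, Igfbp6 and Igfbp7, and above them for 0, against 8.83% and 6.80% of all genes. For these 4 the two-sided exact permutation test gave p = 0.1, the smallest that 3 libraries against 3 allow. Of the 4, Igf1 rests on 1 to 6 reads per library, around the floor of 3 reads. DESeq2 called Igfbp2 (adjusted p 0.0340) and Igfbp7 (0.0272), and the edgeR exact test Igfbp7 (0.0457). Without LIP1 Igfbp7 passed (log2 fold change −1.49, adjusted p 0.0190), without LIP3 Igfbp5 (−2.55, 0.0360) and without EV3 Igfbp2 (−2.48, 0.0345). Other omissions weakened them, to −1.29 for Igfbp2 and −0.36 for Igfbp5 without EV1, and to −0.87 for Igfbp7 without LIP2. The largest adjusted p with a library left out was 0.510 for Igfbp2, 0.904 for Igfbp5 and 0.318 for Igfbp7.

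In LAP against EV, 5 of the 10 genes were above and 5 below 0, with a median log2 fold change of 0.02, equal at this rounding to that over all 18156 genes, of which 47.8% were below 0. Of the 10, 0 passed the adjusted threshold by the edgeR quasi-likelihood test, against 0.0330% of all genes as lower and 0.0275% as higher, 0 had an unadjusted p under 0.05, against 1.34% of all genes as lower and 1.93% as higher, and 0 separated the groups, against 3.76% as lower and 3.81% as higher. DESeq2 and the edgeR exact test called 0 as well, and with the replicate number as a block 0 passed, against 0.165% of all genes as lower and 0.132% as higher. The smallest unadjusted p was that of Igfbp6, with a log2 fold change of 0.42 ± 0.26 (SE) and a 95% interval from −0.14 to 0.98. The intervals were wide for Igfbp2, from −0.83 to 2.19, and for Igfbp5, from −0.60 to 1.76. With the block they were from −0.20 to 0.93 for Igfbp2 and from 0.27 to 0.88 for Igfbp5, which was higher in LAP in 3 of 3 pairs, at 1.51, 1.35 and 1.62 times its level in EV, with a blocked log2 fold change of 0.58 ± 0.15 (SE) and an adjusted p of 0.139. For the receptors the intervals without the block were narrower, from −0.42 to 0.36 for Igf1r and from −0.59 to 0.27 for Igf2r. Both comparisons use the same EV libraries and are given side by side only.

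**Figure D3:**
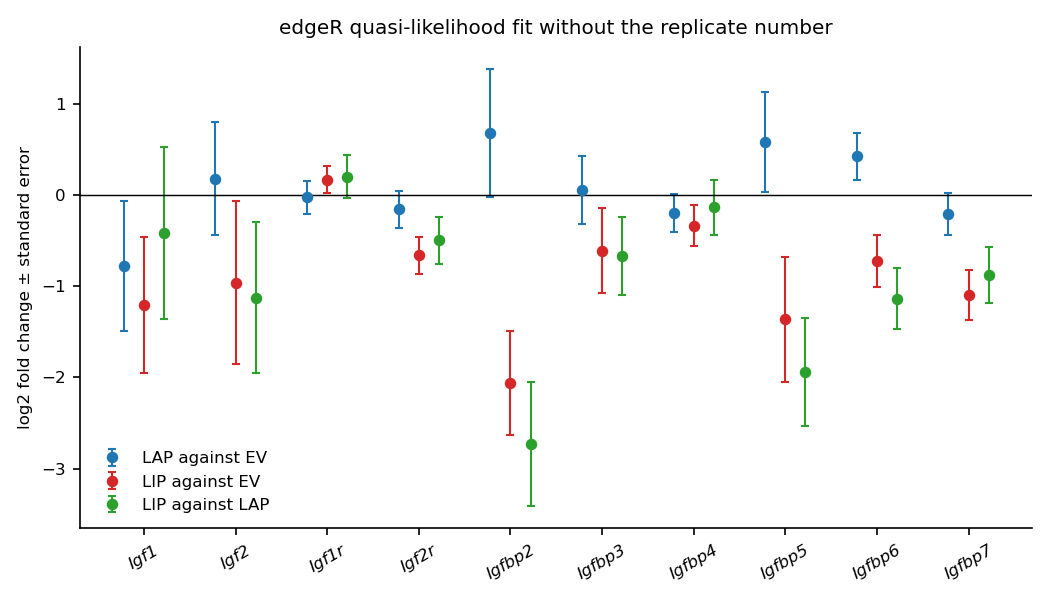
Log2 fold change with its standard error for the 10 genes in the 3 comparisons, from the fit without the replicate number. LIP against EV and LIP against LAP lie below 0 for all genes but Igf1r, with the lowest values at Igfbp2 (−2.06 and −2.73), while LAP against EV lies on both sides of 0.

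In the direct comparison of LIP with LAP, 9 of the 10 genes had a log2 fold change below 0, with a median of −0.77, where the median over 18166 genes was 0.02 and 47.4% were below 0. Here too the 9 include both ligands, with few reads. Without the replicate number, 0 of the 10 passed the adjusted threshold by the edgeR quasi-likelihood test, against 0.837% of all genes as lower and 0.209% as higher, and DESeq2 and the edgeR exact test called 0 as well. At an unadjusted p under 0.05, 4 were lower, Igfbp2, Igfbp5, Igfbp6 and Igfbp7, and 0 higher, against 5.98% and 3.30% of all genes. The libraries of LIP and LAP overlapped for all 10 genes, while 6.58% of all genes were lower and 6.23% higher in LIP without overlap. The log2 fold change was −2.73 ± 0.68 (SE) for Igfbp2, with an adjusted p of 0.0599, −1.94 ± 0.59 for Igfbp5, with 0.164, −1.14 ± 0.34 for Igfbp6, with 0.147, and −0.88 ± 0.31 for Igfbp7, with 0.278.

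Libraries of the same number deviated together between LIP and LAP, and with the number as a block 5 of the 10 genes were lower in LIP at an adjusted p under 0.05, against 4.79% of all genes as lower and 1.72% as higher. These were binding proteins throughout. Igfbp5 had a blocked log2 fold change of −2.18 ± 0.30 (SE, adjusted p 2.17e-08), Igfbp2 one of −2.22 ± 0.37 (3.44e-06), Igfbp6 one of −1.12 ± 0.22 (6.59e-05), Igfbp7 one of −0.90 ± 0.20 (0.000598) and Igfbp3 one of −0.80 ± 0.18 (0.00104). Igfbp4, at −0.15 ± 0.18 with an adjusted p of 0.824, and Igf2r, at −0.49 ± 0.17 with 0.0744, did not pass, nor did Igf1r or the ligands. The blocked fit adds a number effect to the model and leaves fewer residual degrees of freedom from 6 libraries. Its test also pools the spread over genes, so adjusted p-values as small as these do not rest on the libraries of the gene alone. The methods do not say whether libraries of a number were made together. The fibroblast markers moved with this result, with 8 of 12 lower at an adjusted p under 0.05 in the same blocked fit, and their part in it was not tested.

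The ratios by number show which pairs carried these values. Igfbp7 was lower in LIP in 3 of 3 pairs, at 0.582, 0.411 and 0.637 times its level in LAP. Igfbp6, at 0.658, 0.178 and 0.795 times, and Igfbp3, at 0.863, 0.456 and 0.483 times, were lower in 3 of 3 as well. Igfbp2, at 0.109, 0.0865 and 1.74 times, and Igfbp5, at 0.0887, 0.102 and 1.16 times, were lower in pairs 1 and 2 and higher in pair 3. For Igfbp2 it was LAP3 that was low in pair 3, and for Igfbp5 it was LIP3 that was high. Without LIP3 the fit without the block called Igfbp2 (log2 fold change −2.77, adjusted p 1.60e-05), Igfbp5 (−3.13, 4.85e-11) and Igfbp6 (−1.09, 0.0131), and without LAP3 it called the same genes at −3.22 (3.08e-06), −2.22 (0.00168) and −1.41 (0.00292). Other omissions weakened them, to −1.54 for Igfbp2 and −0.91 for Igfbp5 without LAP1, and to −0.80 for Igfbp6 without LAP2. The largest adjusted p with a library left out was 0.264 for Igfbp2, 0.661 for Igfbp5 and 0.705 for Igfbp6.

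**Figure D4:**
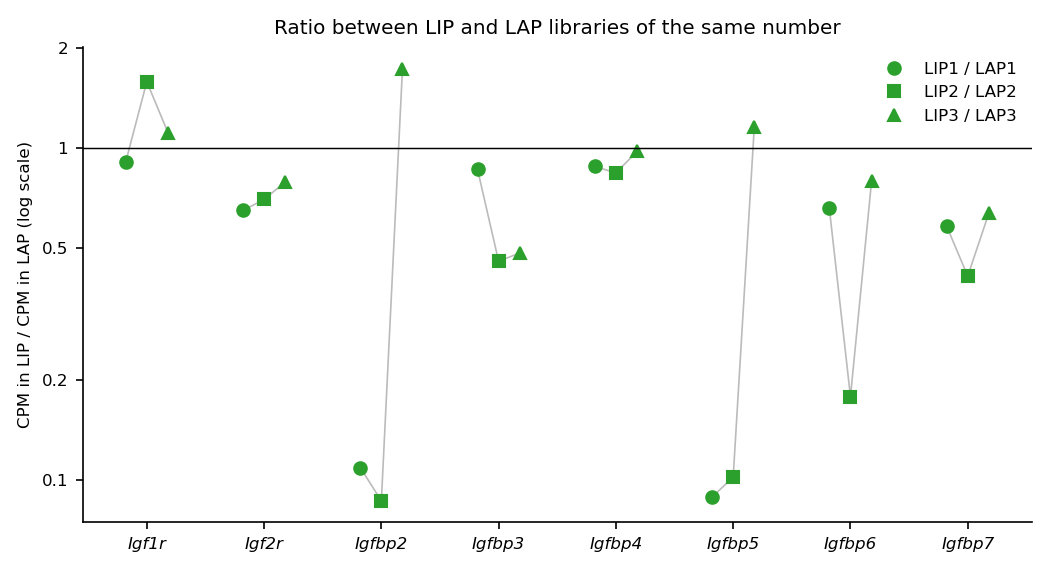
CPM in LIP divided by CPM in LAP for libraries of the same number, on a log axis, for the receptors and binding proteins. Pairs 1 and 2 lie near 0.1 for Igfbp2 and Igfbp5 and pair 3 above 1, while all pairs lie below 1 for Igf2r, Igfbp3, Igfbp4, Igfbp6 and Igfbp7.

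Summed over the 5 binding proteins other than Igfbp4, the level was 114 ± 65.7 CPM in LIP and 194 ± 65.0 CPM in EV, a ratio of 0.588, and in the comparison with LAP 113 ± 65.4 CPM in LIP and 214 ± 65.6 CPM in LAP, a ratio of 0.527 (SD, n = 3 each). With Igfbp4 included, the ratios were 0.765 and 0.846. These sums are descriptions and were not tested. Igfbp3 was the largest part of the sums without Igfbp4, with means of 72.7 CPM in LIP and 111 CPM in EV. In the comparison with LAP its means were 72.1 CPM in LIP and 115 CPM in LAP. The ratios thus do not describe the 5 genes equally. In bulk RNA, fewer cells with an mRNA and less mRNA per cell cannot be told apart.

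The other genes of the pathway were read from 5 lists, by their counts in the same fits. Of the 7 proteases that cut binding proteins and their inhibitors, 1 was lower at an adjusted p under 0.05 in LIP against LAP and 0 in LIP against EV, where 2 had an unadjusted p under 0.05, with medians of −0.53 and −0.59. The one called was Pappa, the protease of IGFBP4. It was at 21.3, 16.8 and 40.2 CPM in EV1, EV2 and EV3, at 25.9, 19.1 and 33.2 CPM in LAP1, LAP2 and LAP3, and at 9.55, 6.98 and 14.7 CPM in LIP1, LIP2 and LIP3. All LIP libraries were below all libraries of EV and of LAP. Its log2 fold change was −1.31 ± 0.29 (SE) in LIP against LAP, with an adjusted p of 0.0372, or 1.37e-07 with the block, and −1.33 ± 0.33 in LIP against EV, with an adjusted p of 0.118. The first call was lost without LIP1 (0.164), LIP2 (0.128), LAP2 (0.0927) or LAP3 (0.0728). With the block, 4 of the 7 were lower in LIP than in LAP and 0 higher, against 4.79% and 1.72% of all genes, which adds Stc2 (−1.65 ± 0.24, 1.00e-07) and Stc1 (−0.94 ± 0.27, 0.0187), both inhibitors of PAPP-A, and the protease Htra1 (−0.55 ± 0.17, 0.0358).

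Of 23 receptor substrates, adaptors and members of PI3K, AKT and FOXO signalling, 1 was higher in LIP against EV and 1 in LIP against LAP, with 0 lower, and medians of −0.03 and 0.15. Of all genes, 0.0659% and 0.209% passed as higher in these comparisons, and 0.330% and 0.837% as lower. Irs4, an insulin receptor substrate, had 0, 0 and 1 reads in EV1, EV2 and EV3, 7, 4 and 0 reads in LAP1, LAP2 and LAP3, and 21, 32 and 11 reads in LIP1, LIP2 and LIP3. Every LIP library was above every other library. Over the summed reads, 64 in LIP and 1 in EV, the ratio was 71.5 with a 95% counting interval from 12.4 to 2866, and the adjusted p was 0.0152. The call was lost without LIP2 (0.0640) or EV2 (0.0896) and with filterByExpr (0.114). In LIP against LAP, with 64 and 11 reads, the ratio was 6.27 (3.28 to 13.2), with an adjusted p of 0.0819, or 0.000569 with the block. Irs2, the widely expressed substrate that links the receptors to PI3K, was at 51.9, 54.9 and 49.2 CPM in EV1, EV2 and EV3, at 42.4, 34.8 and 49.5 CPM in LAP1, LAP2 and LAP3, and at 72.3, 77.5 and 93.6 CPM in LIP1, LIP2 and LIP3. All LIP libraries were above all libraries of EV and of LAP. Its log2 fold change was 0.96 ± 0.22 (SE) in LIP against LAP, with an adjusted p of 0.0406, or 1.92e-05 with the block, and 0.64 ± 0.16 in LIP against EV, with an adjusted p of 0.109. The first call was lost without LIP1 (0.0808), LIP2 (0.0733), LAP1 (0.103) or LAP2 (0.184). With the block, the adaptor Grb14, which inhibits receptor kinases, was lower in LIP than in LAP (−1.12 ± 0.19, 2.28e-06; without the block 0.0530).

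A list of 8 genes held Igf2 mRNA-binding proteins, genes of the Igf2 locus, and Hmga2, Plag1 and Ctcf, which lie on chromosomes 10, 4 and 8. Of these 8, 7 were tested, and 0 passed the adjusted threshold in LIP against EV or LIP against LAP without the block. In either direction 2 and 2 had an unadjusted p under 0.05, with medians of −0.37 and −0.31. Of all genes, 6.75% were lower and 4.23% higher at that p in LIP against EV. In LIP against LAP these shares were 5.98% and 3.30%. Igf2bp3, a fetal binding protein of Igf2 mRNA, had the smallest p in LIP against EV (−0.78 ± 0.26, adjusted p 0.268). With the block, 3 of the 7 were lower in LIP than in LAP and 0 higher, against 4.79% and 1.72% of all genes. These were Igf2bp3 (−1.12 ± 0.18, 1.36e-06), Plag1 (−0.95 ± 0.26, 0.00978) and the noncoding H19 (−2.37 ± 0.37, 5.44e-07), which lies 72622 bases from Igf2. With the block H19 was also higher in LAP than in EV (1.54 ± 0.31, adjusted p 0.0356, without the block 0.918). Of 10 other ligands, receptors, carriers and binding-domain proteins, 7 were tested in LIP against EV, and 0 passed, with 1 at an unadjusted p under 0.05, Igfbpl1 (2.08 ± 0.69, adjusted p 0.263), which had 1 to 9 reads per library. Of 8 genes of growth hormone signalling, 0 passed, with 1 at an unadjusted p under 0.05, Socs1 (−0.98 ± 0.40, adjusted p 0.395). In LIP against LAP both lists had 0 genes past either threshold. In LAP against EV, 0 genes of the 5 lists passed without the block by the edgeR quasi-likelihood test, and 2 had an unadjusted p under 0.05, Irs4 and H19. Both were higher in LAP, where 1.93% of all genes were higher and 1.34% lower at that p.

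**Figure D5:**
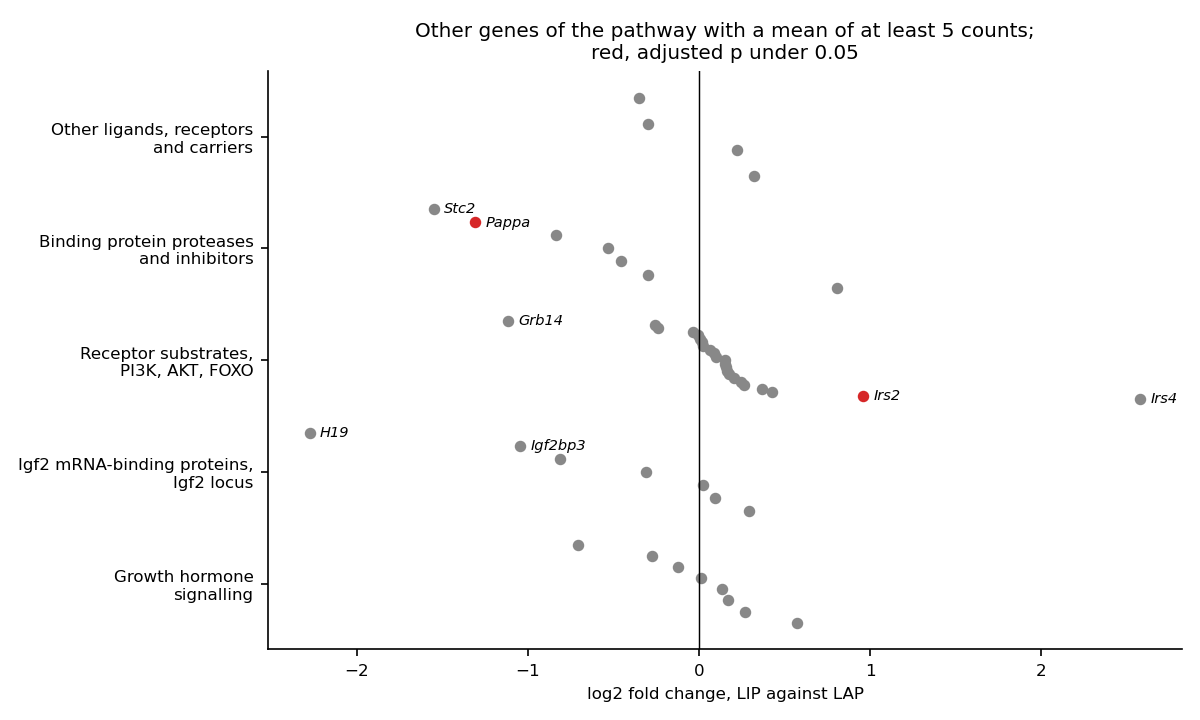
Log2 fold change in LIP against LAP, without the block, of those genes of the 5 lists that averaged 5 counts or more, 1 point per gene, red where the adjusted p was under 0.05. Pappa (−1.31) and Irs2 (0.96) are the red points, and most genes of receptor signalling lie close to 0.

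Genes of a like pattern were read for Igfbp2 alone and do not describe the axis as a set. Igfbp2 had the smallest p of the 10 in any comparison in the fit without the block, where 0 of them passed the threshold. Out of 10252 genes averaging 50 counts or more, Pcp4l1 (Pearson's r 0.974), 4933404O12Rik (0.958) and Tril (0.955) had the highest correlation with the log2 level of Igfbp2 over the 9 libraries. These are descriptions over libraries that share groups and numbers.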

How the data were processed

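RNA from 9 libraries, 3 each of EV, LAP and LIP, was prepared by the authors with TruSeq v2 and sequenced, aligned with TopHat 1.4.1 and counted per gene with HTSeq 0.5.4, per the labels, which name mm10 and GRCh38 as builds. The authors deposited raw counts without normalization. The strand setting is not given in the sources used here. All 9 count columns were assigned by their labels.

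For each comparison, genes with 1 count or more over its 6 libraries entered the quasi-likelihood test of edgeR 4.0.16 (R 4.3.3) after TMM scaling (factors 0.949 to 1.10), without covariates, with Benjamini-Hochberg adjustment over all genes tested and a threshold of 0.05. Standard errors were derived from the F value of each test and intervals from its degrees of freedom. CPM by library use TMM factors over all 9 libraries. Counting intervals of summed reads are exact binomial intervals scaled by library totals. Exon lengths and gene positions come from GENCODE M21 (GRCm38) and start regions from RefSeq. The test was checked on simulated counts. Figures were drawn with matplotlib 3.10.9.

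Libraries are numbered 1 to 3 in each group by their titles. Pearson's r of deviations from the group means between libraries of the same number was 0.414 to 0.561 in LIP against LAP and 0.211 to 0.527 in LAP against EV, so the number was treated as pairing there and blocked values are given where they change a call. In LIP against EV this r was −0.121 to 0.292, which leaves pairing unclear, and the number was not treated as pairing there.

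The 10 genes, the lists and the tests were chosen with earlier results of these data known. Named are the 10 genes, genes of the lists past the threshold, the gene of each list with the smallest p in LIP against EV and the 3 genes most like the gene with the smallest p. Stc1, Stc2, Htra1, Grb14, Igf2bp3 in LIP against LAP, Plag1 and H19 were added after their values were seen. Tried besides were the replicate block, each library left out, the Wald test of DESeq2 1.42.0, edgeR's exact test, scaling by DESeq2 size factors or by totals, filterByExpr, a minimum of 10 counts per library, a model of all 9 libraries, and a threshold of 0.01.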

Additional observations from a re-analysis of the deposited data

How the results depend on the processing

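Of the 10 genes, 0 passed in LIP against EV with edgeR's quasi-likelihood test, against 2 with DESeq2, 1 with the edgeR exact test, 4 with the replicate block and 0 to 1 with a library left out. In LIP against LAP, 0 passed, against 5 with the block and 0 to 3 with a library left out, and in LAP against EV 0 passed under every alternative run. Across all genes, the 72 calls in LIP against EV became 36 with total counts only, 4 with filterByExpr, 0 of 11505 genes (1313 at an unadjusted p under 0.05) with at least 10 counts in every library, 321 with DESeq2, 301 with the edgeR exact test, 157 with all 9 libraries in a single model, 467 with the block, 13 at an adjusted p under 0.01 and 22 (without EV2) to 367 (without LIP3) with a library left out. The 11 calls in LAP against EV became 3 with filterByExpr, 0 of 11705 (259 at an unadjusted p under 0.05) with at least 10 counts, 26 with DESeq2, 33 with the exact test, 5 with all 9 libraries, 54 with the block, 6 at an adjusted p under 0.01 and 6 (without EV2) to 62 (without LAP3) with a library left out. The 190 calls in LIP against LAP became 113 with total counts only, 2 with filterByExpr, 0 of 11480 (1081 at an unadjusted p under 0.05) with at least 10 counts, 1183 with the block, 36 at an adjusted p under 0.01 and 7 (without LAP2) to 448 (without LIP3) with a library left out. The cause of these shifts was not tested.

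Between LIP and EV pairing by number was unclear (r of deviations 0.292, −0.121 and 0.232), so the blocked values are given as an alternative only. Of all 18203 genes there, the block called 402 as lower and 65 as higher. Among the 10 genes it called 4 as lower and 0 as higher, namely Igfbp7 (−1.16, adjusted p 0.00397), Igfbp2 (−1.89, 0.0241), Igfbp3 (−0.79, 0.0393) and Igf2r (−0.69, 0.0454). It also called Pappa (adjusted p 0.00129), Stc2 (0.0132), Grb14 (0.0147) and Igf2bp3 (0.0266) as lower. Among the 10 genes, the block changed no other call than those given. With a library left out, signs turned in LAP against EV for Igf2 (−0.85 to 1.04), Igfbp2 (−0.50 to 1.44), Igfbp3 (−0.27 to 0.42), Igfbp5 (−0.45 to 1.58), Igf1r (−0.17 to 0.14), Igf2r (−0.38 to 0.033) and Pappa (−0.26 to 0.44, and 0.048 with the block), and in LIP against LAP for Igf1 (−0.75 to 0.10) and Igfbp4 (−0.36 to 0.061), none of which passed the threshold. In LIP against EV no sign turned for the 10 genes, Irs2, Irs4 or Pappa. Pappa in LIP against LAP was lost with total counts only (adjusted p 0.0591), and Pappa and Irs2 with filterByExpr (0.2003 and 0.165) and with at least 10 counts (0.270 and 0.213). Igf1 and Igf2 did not reach the stricter filters on low counts, and at 0 to 26 reads per library depth limits both.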
